A study of Mus musculus with 7 samples.

Results

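The genes described here are 9 genes of megakaryocytes and platelets, read in the whole shoulder joints of mice 2 weeks after surgery on the left shoulder that repaired the supraspinatus tendon of the rotator cuff. They are Pf4, Ppbp, Gp9, Gp5, Itga2b, Treml1, Clec1b, Gp6 and Tubb1, chosen by name from 56854 gene identifiers counted in every library. All 9 passed the filter on low counts and are among the 17791 genes tested. The mice were wild type (n = 3) or Tnc-/- (n = 4), which lack a working gene for the matrix glycoprotein tenascin C, and every mouse of both genotypes had the tendon repair. Strain, age and sex are not stated in the labels, no unoperated joint was analysed here, and each library is 1 mouse, since the series text counts 7 mice.

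Megakaryocytes are giant cells of the bone marrow that shed platelets into the blood. Platelets have no nucleus and carry messenger RNA made in the megakaryocyte, so platelet genes in a tissue library can come from marrow megakaryocytes, from blood held in the vessels or from a clot. At a wound platelets stick to exposed collagen and to von Willebrand factor, change shape, and release chemokines and growth factors from their granules. A shoulder joint dissected whole holds bone with its marrow as well as tendon, muscle and cartilage. In such bulk samples, fewer cells of a type and less RNA per cell cannot be told apart.

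The wild-type libraries held 13462535 to 18503579 gene counts and the Tnc-/- libraries 19249441 to 28189752. Tnc itself was at 326 to 440 CPM (the usual depth-scaled unit, here a gene's counts over all gene counts of its library) in wild type and at 32.0 to 50.2 CPM in Tnc-/-, a log2 fold change of -3.08 (SE 0.21; adjusted p = 2.8e-04, edgeR). Genes for muscle, tendon, cartilage and bone were present in all 7 libraries, although the tendon regulator Scx was listed at 0 in every library. The spans of Scx and of the marker genes Alas2 and Acp5, also listed at 0, are wholly covered by other genes in GENCODE M21, and no level is read from these counts. Wild-type libraries 2 and 3 stood apart from the other 5. In them, 2010 receptor genes of smell and pheromone sensing summed to 1564 and 1112 CPM, against 89.8 CPM in wild-type library 1 and 33.3 to 41.5 CPM in Tnc-/-. The files also differed in form by genotype, with 56980 identifiers listed per wild-type file and 56941 per Tnc-/- file, so in every comparison genotype and the making of the files cannot be told apart.

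The bases just before the start site are shown for those of the 9 genes that hold a GATA motif. These are letters of the kind that GATA1, the master regulator of megakaryocytes and red cell precursors, binds. The motif was searched as AGATAA, or as AGATAG, or as TGATAA, or as TGATAG on both strands, in the 250 bases before each start in the RefSeq promoter table (GRCm38.p6). All 9 genes had an entry there, and 3 of 9 held the motif, against 26.5% of 32841 promoters of that length. An ETS motif, bound by FLI1 and its relatives and searched as CCGGAAG or CAGGAAG on both strands, was in 0 of 9, against 17.0% of all promoters. Other forms of either motif were not searched, so the windows can hold them. The capitals mark GATA matches on either strand, and a match is a description of letters, not a site.
Gp5, chr16:30310782-30311031, minus strand: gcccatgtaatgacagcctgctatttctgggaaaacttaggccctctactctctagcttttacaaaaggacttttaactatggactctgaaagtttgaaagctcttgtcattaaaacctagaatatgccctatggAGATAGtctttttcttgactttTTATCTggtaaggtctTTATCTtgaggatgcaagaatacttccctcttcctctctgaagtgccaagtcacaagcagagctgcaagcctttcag
Gp6, chr7:4397745-4397994, minus strand: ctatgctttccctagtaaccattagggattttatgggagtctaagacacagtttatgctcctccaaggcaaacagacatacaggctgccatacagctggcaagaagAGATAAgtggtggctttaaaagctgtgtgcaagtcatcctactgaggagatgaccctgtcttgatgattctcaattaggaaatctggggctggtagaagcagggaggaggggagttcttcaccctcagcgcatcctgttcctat
Clec1b, chr6:129397047-129397296, plus strand: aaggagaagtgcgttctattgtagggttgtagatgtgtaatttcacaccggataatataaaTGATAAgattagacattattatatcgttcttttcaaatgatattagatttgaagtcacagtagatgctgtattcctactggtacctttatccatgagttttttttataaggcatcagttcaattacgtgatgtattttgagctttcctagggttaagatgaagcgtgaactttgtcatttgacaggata
The Gp5 window held 3 matches, and the windows of Gp6 and Clec1b held 1 each.

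All 9 genes were expressed in all 7 libraries, and the fitted level of every one was higher in Tnc-/-. The difference passed the test in 5 of 9: Pf4, Gp9, Gp5, Itga2b and Treml1 (edgeR's quasi-likelihood test, adjusted p under 0.05). Over all genes tested, 29.0% were past that threshold in either direction, 10.3% as higher and 18.7% as lower in Tnc-/-. The fitted log2 fold changes of the 9 ran from 0.77 to 1.57 with a median of 1.03, where the median of all tested genes was -8.9e-04. In 4 of 9 genes every Tnc-/- library lay above every wild-type library in CPM, as it did in 10.4% of all genes tested, while 24.1% had every Tnc-/- library below. The summed level of the 9 was 566, 289 and 389 CPM in wild type and 1004, 547, 765 and 727 CPM in Tnc-/-, with libraries here and below in the order of their numbers. Wild-type library 1 thus lay above Tnc-/- library 2, and the groups overlapped in the sum.

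**Figure D1:**
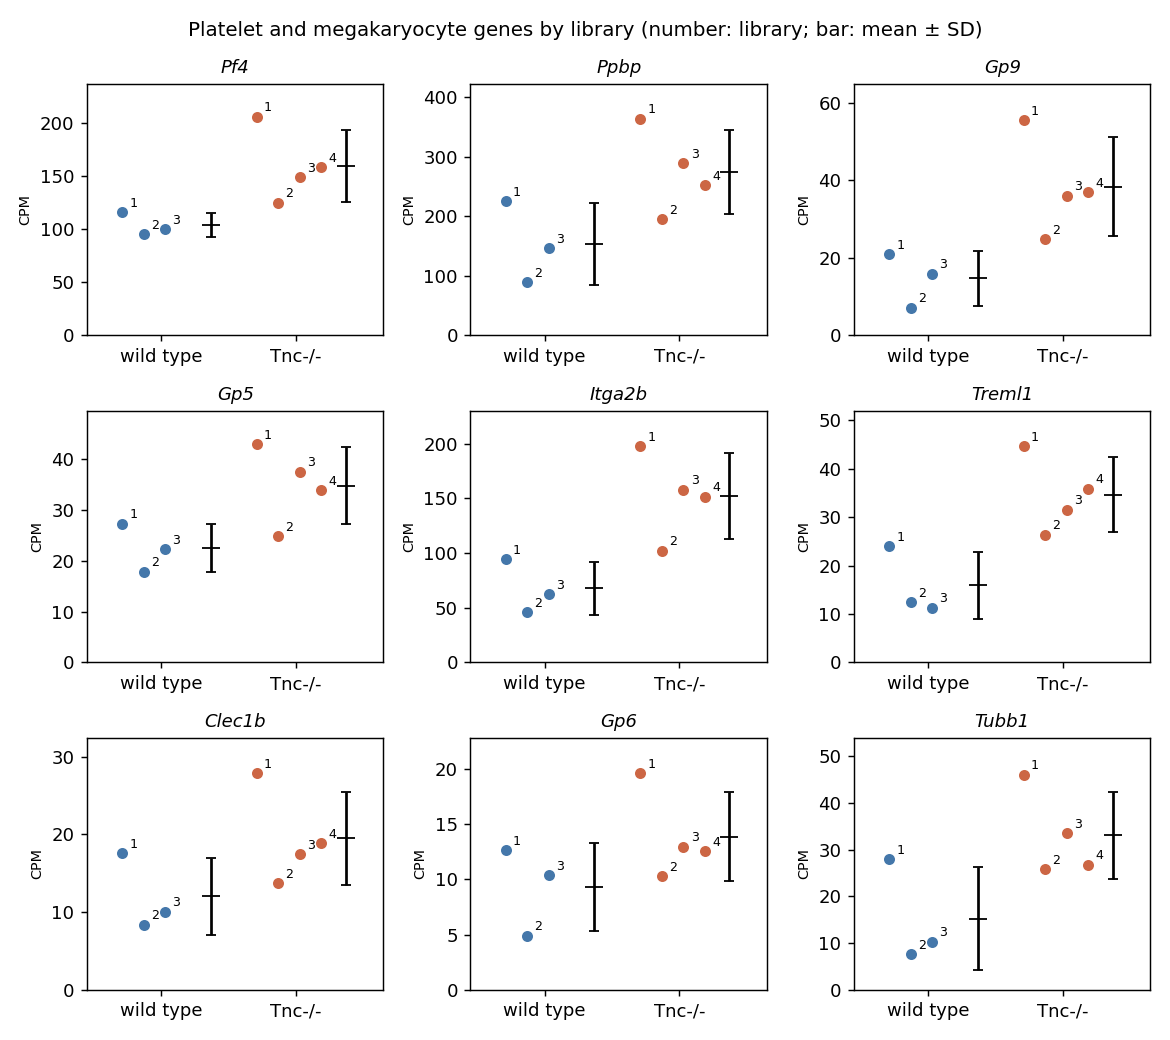
Level of each of the 9 genes in CPM (linear axis from 0) in the 3 wild-type (blue) and 4 Tnc-/- (orange) libraries. Points are libraries with their number, and black bars are the group mean ± SD. In each panel wild-type library 1 is the highest of its group and Tnc-/- library 1 the highest of all 7.

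Granule chemokines had the highest mean levels of the 9 per exon length. Pf4 encodes platelet factor 4, a CXC chemokine stored in alpha granules and also made by some tissue macrophages. It was at 116, 95.4 and 100.4 CPM in wild type and at 206, 125, 149 and 159 CPM in Tnc-/-. Every Tnc-/- library was above every wild-type library, though Tnc-/- library 2 lay close to wild-type library 1. The means were 104 ± 11.0 CPM (SD, n = 3) and 159.9 ± 34.0 CPM (SD, n = 4), and Pf4 rose by a log2 fold change of 0.83 (SE 0.19; adjusted p = 0.0138, edgeR).

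Ppbp, which encodes the precursor of the neutrophil-attracting chemokine CXCL7, is the neighbour of Pf4 in the genome. It was at 225, 88.8 and 146 CPM in wild type and at 363, 194, 288 and 252 CPM in Tnc-/-. Wild-type library 1 was above Tnc-/- library 2, so the groups overlapped. The log2 fold change of 1.03 (SE 0.34) was larger than that of Pf4 but missed the threshold (adjusted p = 0.0508, edgeR), with a spread of ± 68.3 CPM (SD, n = 3) in wild type against ± 11.0 CPM for Pf4.

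The receptor for von Willebrand factor is the glycoprotein Ib-IX-V complex, which first slows platelets on a damaged vessel wall. Gp9 encodes its glycoprotein IX subunit. It was at 21.02, 7.13 and 16.0 CPM in wild type and at 55.6, 24.8, 36.1 and 36.9 CPM in Tnc-/-. The groups did not overlap, and Gp9 rose by a log2 fold change of 1.57 (SE 0.40; adjusted p = 0.0209, edgeR), the largest of the 9.

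Gp5, the thrombin-cleaved glycoprotein V subunit of that complex, was at 27.2, 17.8 and 22.2 CPM in wild type and at 42.8, 24.7, 37.4 and 33.8 CPM in Tnc-/-. Tnc-/- library 2 lay below wild-type library 1. Gp5 rose by a log2 fold change of 0.83 (SE 0.24; adjusted p = 0.0301, edgeR). Scaled by library totals, Gp5 lost its call (adjusted p = 0.0662, edgeR). Gp1ba, which encodes the subunit that binds von Willebrand factor and is 1 of 60 further platelet genes listed for comparison, rose as well. It was at 20.2, 8.69 and 9.09 CPM in wild type and at 30.4, 17.9, 24.1 and 26.6 CPM in Tnc-/-, a log2 fold change of 1.15 (SE 0.36; adjusted p = 0.0433, edgeR). The call was kept in 1 of 7 fits that left out 1 library, and lost with limma voom, library totals and upper-quartile scaling (adjusted p = 0.0741, 0.0635 and 0.0556). The last subunit, Gp1bb, had 0 to 9 counts in each library and was not tested, and 92.9% of its exon bases are shared with other genes in GENCODE M21, so its count is uncertain.

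Itga2b encodes integrin alpha IIb, which pairs with integrin beta 3 (Itgb3) to form the fibrinogen receptor that links platelets to each other. Itga2b was at 94.3, 46.1 and 62.6 CPM in wild type and at 198, 102, 158 and 151 CPM in Tnc-/-. The groups did not overlap. Its log2 fold change was 1.36 (SE 0.30) with the lowest adjusted p of the 9 (edgeR, 0.0131). Its partner Itgb3, which osteoclasts and vessel cells also make, rose from 111 ± 31.3 CPM (SD, n = 3) to 176 ± 36.3 CPM (SD, n = 4), which is 0.87 as a log2 fold change (SE 0.25; adjusted p = 0.0315, edgeR). With 1 library left out, Itgb3 kept its call in 2 of 7 fits.

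Treml1 encodes TLT-1, a receptor of the alpha granule membrane that reaches the surface on activation. It was at 23.9, 12.4 and 11.3 CPM in wild type and at 44.6, 26.3, 31.5 and 35.9 CPM in Tnc-/-, with no overlap. It rose by a log2 fold change of 1.31 (SE 0.33; adjusted p = 0.0193, edgeR).

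The other activating receptors did not pass the test. Clec1b encodes CLEC-2, the platelet receptor for podoplanin, and was at 17.6, 8.39 and 10.05 CPM in wild type and at 27.9, 13.7, 17.5 and 18.9 CPM in Tnc-/-. Wild-type library 1 lay above Tnc-/- libraries 2 and 3, and the log2 fold change was 0.89 (SE 0.35; adjusted p = 0.0869, edgeR). In GENCODE M21, 3.61% of its exon bases are shared with Clec9a. Gp6, the collagen receptor, was at 12.6, 4.90 and 10.4 CPM in wild type and at 19.7, 10.3, 12.99 and 12.6 CPM in Tnc-/-. Wild-type library 1 lay above Tnc-/- libraries 2 and 4, and wild-type library 3 above Tnc-/- library 2. Gp6 had the smallest log2 fold change of the 9 at 0.77 (SE 0.38; adjusted p = 0.157, edgeR). Fcer1g, the signalling chain that Gp6 needs but that mast cells and myeloid cells share, rose by 0.82 on the log2 scale (SE 0.23; adjusted p = 0.0282, edgeR), a call kept in 1 of 7 fits that left out 1 library.

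Tubb1 encodes beta-1 tubulin, the tubulin of the microtubule ring that keeps platelets disc-shaped. It was at 27.9, 7.58 and 10.3 CPM in wild type and at 46.0, 25.8, 33.6 and 26.8 CPM in Tnc-/-. Wild-type library 1 lay within the Tnc-/- range, far from the other wild-type libraries. The log2 fold change was 1.28 (SE 0.47), with the largest error of the 9, and it missed the threshold (adjusted p = 0.0685, edgeR).

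The order of the 9 genes by level was taken per length, as CPM per kb of exon in GENCODE M21. The sources used here do not say whether reads in introns were counted. If they were, these values run too high for genes with long introns, such as Gp6 (33.8 kb of span on 5900 bases of exon), more than for Pf4 (0.949 kb on 721). The wild-type level of Ppbp was 141 ± 63.0 (SD, n = 3) and its Tnc-/- level 254 ± 65.3 (SD, n = 4), and Pf4 at 144 ± 15.2 and 222 ± 47.2, so these neighbours in the order did not differ beyond their spread. A wide step separated them from Gp9, at 16.7 ± 7.98 and 43.5 ± 14.5 CPM per kb. Itga2b (12.4 and 27.9 CPM per kb in wild type and Tnc-/-), Treml1 (11.3 and 24.6), Tubb1 (10.8 and 23.5) and Gp5 (10.2 and 15.8) followed. In wild type each of these, and Itga2b against Gp9, lay within the spread of its neighbour. In Tnc-/- the steps from Gp9 to Itga2b and from Tubb1 to Gp5 were larger than the SD of either gene. Clec1b (2.36 and 3.82 CPM per kb) and Gp6 (1.58 and 2.35) were lowest.

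The levels of the 9 genes varied together over the libraries, while their shares of the summed level differed in steadiness. Over the 36 pairs of the 9 genes, Pearson correlations of log2(CPM + 0.5) across the 7 libraries ran from 0.78 (Treml1 with Gp6) to 0.98 (Gp9 with Itga2b), with a median of 0.94. These points share library, depth and counting run, and are given as a description. In these sums of CPM longer genes weigh more, so shares are set only between libraries. Ppbp made up 30.8 to 39.7% of the summed level, and its share varied 1.29-fold between the lowest and highest library, against 2.24-fold for Gp9 and 1.88-fold for Tubb1 (2.63 to 4.93%). Itga2b was 16.0 to 16.7% of the sum in wild type and 18.6 to 20.8% in Tnc-/-, and Gp9 was 2.47 to 4.10% and 4.53 to 5.54%, without overlap in either gene. Pf4 was 20.6, 33.1 and 25.8% of the sum in wild-type libraries 1 to 3 and 19.5 to 22.9% in Tnc-/-, so that its share was highest in the library with the lowest sum.

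The wider platelet programme was described with 60 genes in 5 lists, of which 55 passed the filter on low counts. Of these 55, 21 rose and 1 fell (edgeR, adjusted p under 0.05), where 10.3% of all genes tested were called higher and 18.7% lower, and their median log2 fold change was 0.64. P2ry12, F2rl2, Cavin2 and Lyl1 were listed at 0 in all libraries. Each of these 4 lies wholly inside the span of another gene in GENCODE M21, and no level is read from these counts. None of the 9 genes shares more than 3.94% of its span with another gene.

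**Figure D2:**
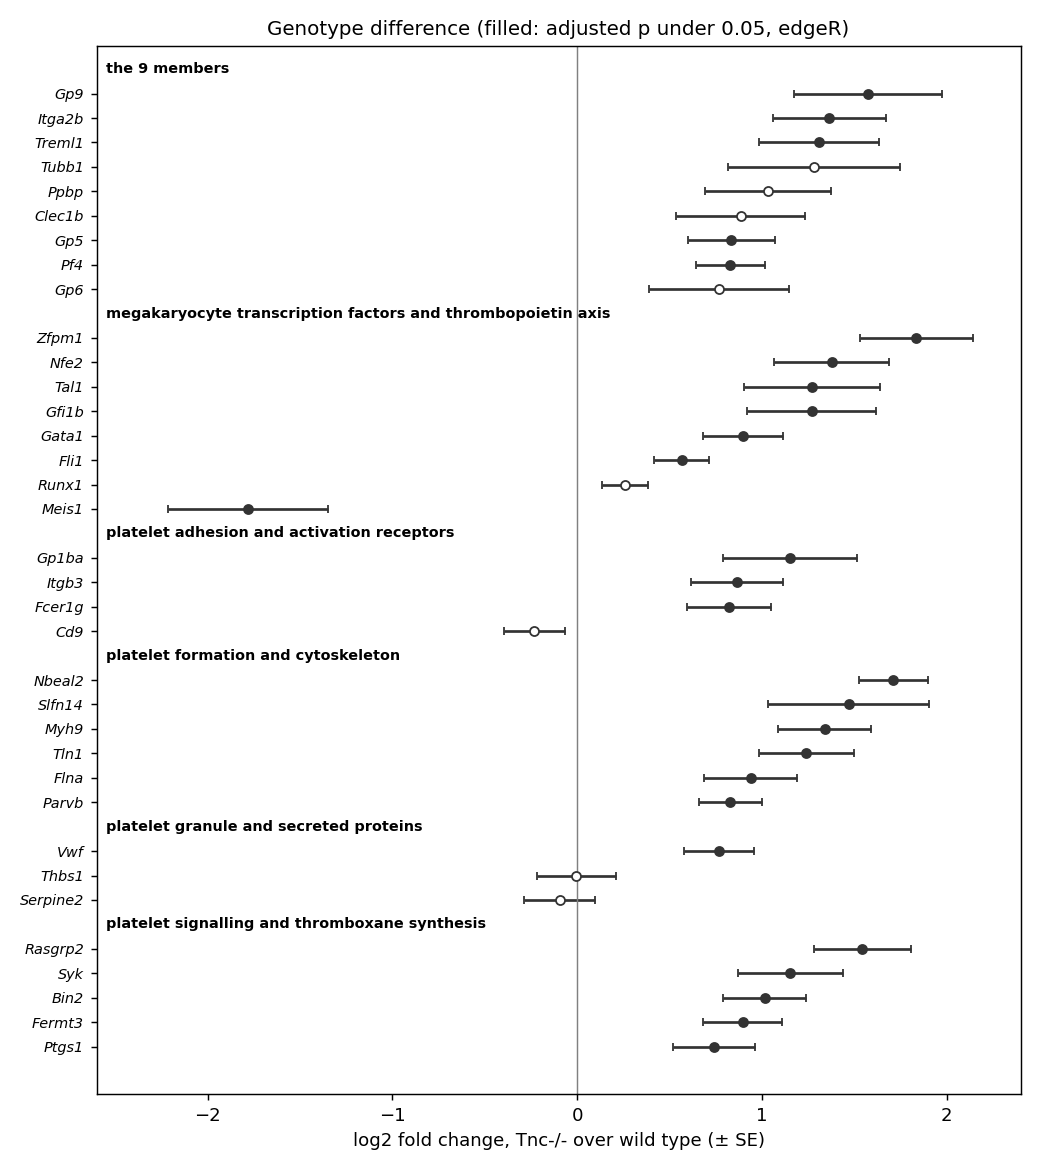
Fitted log2 fold change of Tnc-/- over wild type ± SE for the 9 genes and for the named genes of 5 wider platelet lists (3 wild-type and 4 Tnc-/- libraries). Filled points have an adjusted p under 0.05 in edgeR, and Meis1, at -1.78, is the single filled point left of 0.

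Of 11 tested transcription factors of the lineage and genes of the thrombopoietin axis, 6 were called higher and 1 lower (edgeR). Over all genes tested, 10.3% were called higher and 18.7% lower. Zfpm1, which encodes the GATA1 partner FOG-1 and lies within the span of the predicted gene Gm20388, was at 70.8, 35.0 and 43.3 CPM in wild type and at 214, 126, 154 and 127 CPM in Tnc-/-. Its log2 fold change of 1.84 (SE 0.31; adjusted p = 0.00716, edgeR) was the largest rise of the lists. Gata1 rose from 29.3 ± 3.98 CPM (SD, n = 3) to 47.3 ± 13.1 CPM (SD, n = 4), which is 0.90 as a log2 fold change (SE 0.22; adjusted p = 0.017, edgeR). Nfe2, needed for platelet release, rose by 1.38 on the log2 scale (SE 0.31; adjusted p = 0.0135, edgeR). Tal1 (SE 0.37), Gfi1b (SE 0.35) and Fli1 (SE 0.15) rose by 1.27, 1.27 and 0.57, with edgeR adjusted p of 0.0325, 0.0267 and 0.0228. With 1 library left out, Tal1 kept its call in 1 of 7 fits and the other 2 in 2 of 7 each, against 5 for Gata1, 6 for Nfe2 and 7 for Zfpm1. Gata1, Zfpm1, Nfe2, Tal1 and Gfi1b serve red cell precursors too. Runx1 was at 117 ± 15.6 and 119.6 ± 2.94 CPM (adjusted p = 0.147, edgeR).

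Meis1 was the gene of the lists called lower in the fit of all 7 libraries with TMM scaling, with a log2 fold change of -1.78 (SE 0.43; adjusted p = 0.0177, edgeR). Its level was 9.73, 52.1 and 38.3 CPM in wild type and 7.27 to 8.73 CPM in Tnc-/-. Its wild-type mean thus rested on libraries 2 and 3, those with the high receptor sums, and without both its log2 fold change had an adjusted p of 0.749 (edgeR). The call was kept in 1 of 7 fits that left out 1 library, and lost with limma voom (adjusted p = 0.151). The gene spans 139 kb.

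Of 10 tested genes of platelet formation and the cytoskeleton, 6 were called higher (edgeR), against 10.3% of all genes tested. Nbeal2, required for alpha granules, was at 32.5, 32.2 and 28.6 CPM in wild type and at 114, 70.6, 93.8 and 73.8 CPM in Tnc-/-. Here all wild-type libraries were alike and all Tnc-/- libraries were far above them. The log2 fold change was 1.71 (SE 0.19), with the lowest adjusted p of the lists (edgeR, 0.00426), and it was called, with a positive fold change, in every alternative that tested it. Myh9 (1.34), Tln1 (1.24), Flna (0.94), Parvb (0.83) and Slfn14 (1.47) rose as well on the log2 scale. With 1 library left out, Nbeal2 and Myh9 kept their calls in 7 of 7 fits, Tln1 and Parvb in 6, Flna in 2 and Slfn14 in 1. Myh9, Tln1 and Flna encode cytoskeletal proteins of many cell types.

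Of 13 signalling genes, 5 were called higher (edgeR), against 10.3% of all genes tested. Rasgrp2, which encodes the Rap1 activator CalDAG-GEFI, was at 38.3, 21.4 and 34.2 CPM in wild type and at 102, 60.5, 87.5 and 66.8 CPM in Tnc-/-, a log2 fold change of 1.54 (SE 0.26; adjusted p = 0.00728, edgeR). Syk, Bin2, Fermt3 and the aspirin target Ptgs1 rose by 1.15, 1.01, 0.90 and 0.74, and kept their calls in 3, 6, 3 and 2 of 7 such fits, against 7 for Rasgrp2. Of the other receptors, P2rx1, the ATP-gated channel, had a log2 fold change of 1.20 and missed the threshold (adjusted p = 0.0657, edgeR). In all, 3 of 13 tested receptors were called higher, those given above beside their partners.

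Of 8 granule and secreted proteins 1 was called higher, a share near the 10.3% of all genes tested. This was Vwf, which endothelial cells make as well, at 104, 84.8 and 66.5 CPM in wild type and at 139, 112, 130.4 and 122 CPM in Tnc-/-, a log2 fold change of 0.77 (SE 0.19; adjusted p = 0.0186, edgeR), kept in 3 of 7 fits with 1 library left out. Serpine2 and Thbs1, named because they had the highest mean CPM of this list, whatever their length, and products of fibroblasts too, had log2 fold changes of -0.09 and -0.0041 and adjusted p (edgeR) of 0.743 and 0.992. Cd9, named because it had the highest mean CPM of the listed receptor genes, whatever their length, had a wild-type mean of 288 ± 41.9 CPM (SD, n = 3) and a Tnc-/- mean of 211 ± 23.5 CPM (SD, n = 4), with a log2 fold change of -0.23 (adjusted p = 0.315, edgeR). Scaled by library totals, Cd9 was called lower, with a log2 fold change of -0.45 (adjusted p = 0.0435, edgeR).

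Marker genes of the neutrophil and marrow myeloid list and of the erythroid list moved with the 9 genes. Of the 17 neutrophil and marrow myeloid genes, 12 were called higher in Tnc-/- (edgeR, adjusted p under 0.05), against 10.3% of all genes tested. The 17 summed to 6841, 3566 and 4068 CPM in wild type and to 12273, 6910, 9332 and 8133 CPM in Tnc-/-. The summed level of the 9 platelet genes was 8.27, 8.09 and 9.56% of that sum in wild type and 8.18, 7.92, 8.19 and 8.94% in Tnc-/-. The percentage thus varied 1.21-fold over libraries whose platelet sums themselves ran from 289 to 1004 CPM, and the groups overlapped. Against the 16 erythroid genes the percentage was 40.2 to 42.6% in wild type and 32.6 to 48.9% in Tnc-/-. The erythroid sum ran from 678 to 1337 CPM in wild type and from 1487 to 3031 CPM in Tnc-/-. Of the 15 tested erythroid genes, 8 were called higher, against the same 10.3%, and Alas2 was listed at 0 in all libraries. The part of marrow content, or of blood, in the difference between genotypes was not tested.

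**Figure D3:**
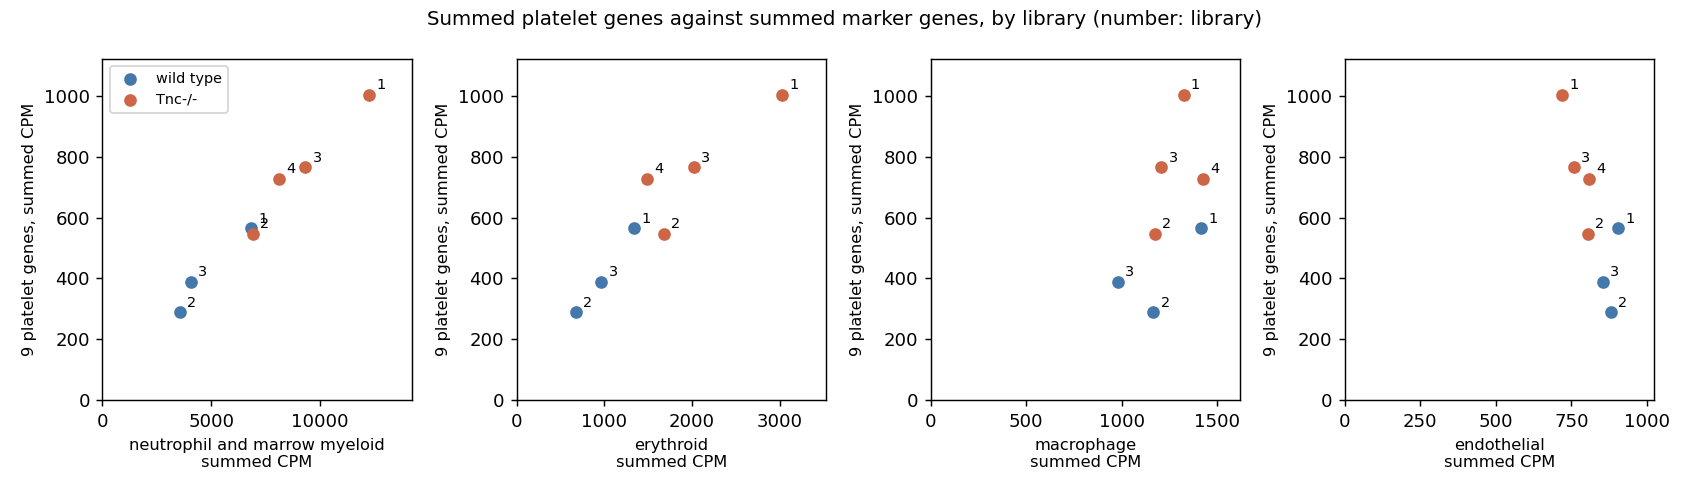
Summed CPM of the 9 platelet genes (vertical) against the summed CPM of neutrophil and marrow myeloid, erythroid, macrophage and endothelial marker genes (horizontal) in the 3 wild-type (blue) and 4 Tnc-/- (orange) libraries, linear axes from 0. The 7 points lie near a line through 0 in the neutrophil panel, where the platelet sum is 7.92 to 9.56% of the neutrophil sum.

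Sums of marker genes were also taken for other cell types, some of which share these genes. The 14 macrophage genes, of interest because macrophages can make Pf4, summed to 1414, 1164 and 980.0 CPM in wild type and 1174 to 1422 CPM in Tnc-/-. Of these 14, 1 was called higher, a share near the 10.3% of all genes tested. The platelet sum was 24.8 to 40.02% of the macrophage sum in wild type and 46.6 to 75.9% in Tnc-/-, without overlap. The 12 endothelial genes, which include Vwf, summed to 855 to 905 CPM in wild type and 720 to 810 CPM in Tnc-/-, with 2 higher and 2 lower, where 10.3% of all genes tested were called higher and 18.7% lower. The lymphatic endothelial sum was 208 to 310 CPM in wild type and 171 to 184 CPM in Tnc-/-, with 1 of 7 genes at 0 and, of the 6 tested, 1 higher (Flt4) and 1 lower (Reln). Flt4 was at 28.0 to 33.9 CPM in wild type and 39.3 to 46.8 CPM in Tnc-/-. Reln, spanning 460.2 kb, was at 23.5, 96.4 and 79.2 CPM in wild type and at 12.3 to 16.9 CPM in Tnc-/-, highest in the wild-type libraries that stand apart. The osteoclast sum, which includes Itgb3, was 811 to 1040.3 CPM and 740.5 to 918 CPM with Acp5 listed at 0, and the mast cell sum was 69.7 to 103 CPM and 71.5 to 100.1 CPM. The sum of 7 muscle genes was 22147 to 26127 CPM in wild type and 27034 to 38490 CPM in Tnc-/-, and its part in the difference was not tested. Of the 7, 2 were called higher, against 10.3% of all genes tested.

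The genes whose pattern over the 7 libraries was most like the mean log2(CPM + 0.5) of the 9 were sought among 12432 genes whose mean reached 5 CPM. They were Nol6, Mcm5, Spn, S100a8, E2f4 and Cd82, with Pearson correlations from 0.991 to 0.995. Spn encodes leukosialin, a surface protein of white blood cells, and S100a8 a calcium-binding protein abundant in neutrophils. Mcm5 belongs to the replicative helicase and E2f4 is a cell cycle regulator. S100a8 ran from 789 to 1538 CPM in wild type and from 1339 to 2195 CPM in Tnc-/-.

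The differences between genotypes depended on which wild-type libraries entered. Wild-type library 1 was the highest of its group in each of the 9 genes, and wild-type library 2 the lowest in all but Treml1. Without library 1, 9 of 9 were called higher in Tnc-/- (24.3% of all genes were), with log2 fold changes from 1.07 to 2.25 and adjusted p (edgeR) from 8.16e-06 to 0.00656. Without wild-type library 2, 2 of 9 were called higher (5.10% of all genes), Gp9 and Itga2b. Without wild-type library 3, 0 of 9 were called by edgeR (3.27% of all genes were called higher), with 5 of 9 at an unadjusted p under 0.05. With libraries 2 and 3 both left out, and the lone wild-type library assumed to vary as the Tnc-/- libraries do, 0 of 9 were called by edgeR (2.53% of all genes). The 9 log2 fold changes were then 0.24 to 0.97, with 4 of 9 at an unadjusted p under 0.05. DESeq2 on all 7 libraries called 7 of 9 higher (12.3% of all genes) and limma voom 2 of 9 (4.09%). DESeq2 with the Bonferroni adjustment that the series text names called 0 of 9 (1.57%), with 8 of 9 at an unadjusted p under 0.05.

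Leaving out a Tnc-/- library moved calls too. Without Tnc-/- library 1, 2, 3 or 4, edgeR called 2, 5, 3 and 2 of 9 as higher (4.82, 5.73, 3.91 and 5.14% of all genes). Itga2b kept its call in 6 of 7 such fits that left out 1 library, Pf4 in 5, Gp9 and Treml1 in 3 and Gp5 in 2. In none of these fits did any of the 9 turn lower in Tnc-/-.

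Gene span and the receptor sum were taken up because wild-type libraries 2 and 3 differ from the rest in both. The median log2 ratio of genes spanning over 300 kb to the Tnc-/- mean was 0.42, 3.23 and 2.78 in wild-type libraries 1 to 3. The 9 genes are short, from 0.949 kb (Pf4) to 33.8 kb (Gp6), and the median log2 fold change was 0.29 for all tested genes of at most 10 kb and -8.9e-04 for all tested genes. With all 7 libraries, 554 of 4632 tested genes spanning at most 10 kb were called higher, and 13.1% of those spanning 10 to 40 kb. When genes of at most 10 kb were fitted and scaled alone, the 6 of the 9 among them had log2 fold changes from 0.54 to 1.31, and Gp9 and Treml1 were called (4.42% of such genes were called higher). The receptor sum of every wild-type library (89.8 CPM or more) was above that of every Tnc-/- library (41.5 CPM or less). As a covariate it overlaps with genotype, so a fit that holds both cannot tell the 2 apart. With the log2 receptor sum of each library as a covariate, 0 of 9 were called by edgeR, and 0 at an unadjusted p under 0.05 (1.10% of all genes were called higher). The log2 fold changes were then 0.45 for Pf4, 0.59 for Gp9, 0.47 for Itga2b, 0.30 for Treml1, 0.26 for Gp5, 0.01 for Ppbp, -0.074 for Clec1b, -0.086 for Gp6 and -0.19 for Tubb1. Of the wider lists, Nbeal2 was the 1 gene called with the covariate (adjusted p = 0.0358, edgeR).

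**Figure D4:**
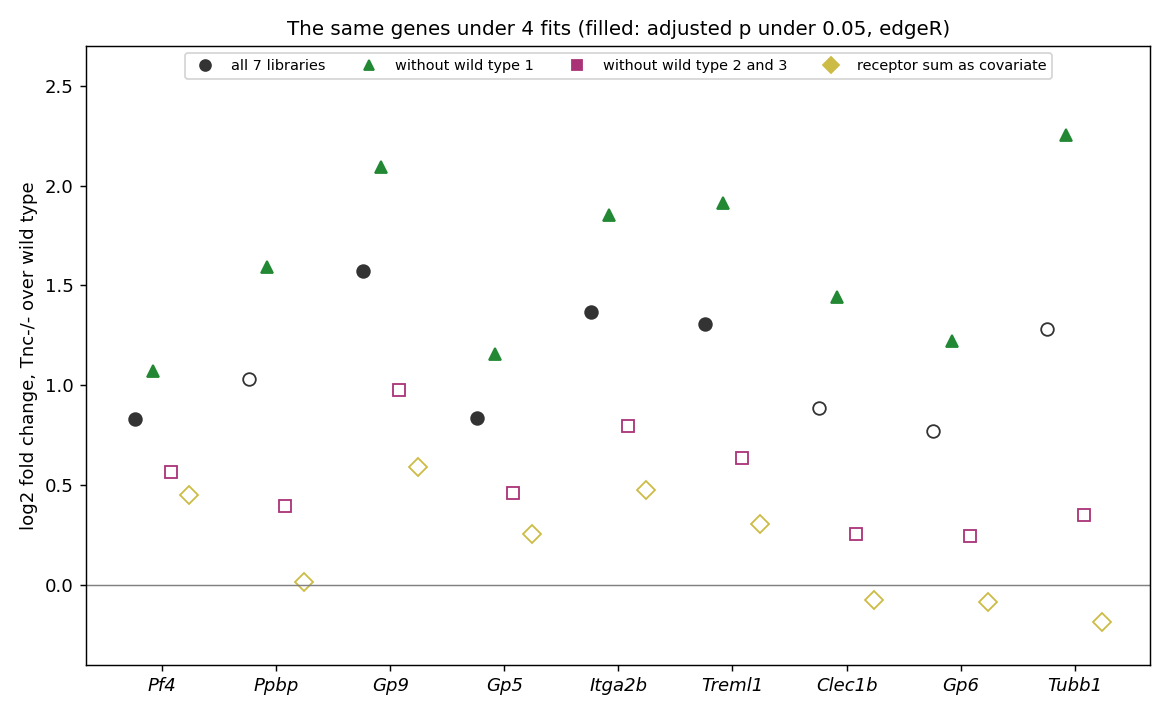
Log2 fold change of Tnc-/- over wild type (linear axis) for each of the 9 genes in 4 edgeR fits: all 7 libraries, without wild-type library 1, without wild-type libraries 2 and 3, and with the receptor sum as a covariate. Filled points have an adjusted p under 0.05. All 9 are filled without wild-type library 1, and none is filled in the last 2 fits.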

How the data were processed

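RNA was measured in 7 whole shoulder joints, 1 poly(A)-enriched library per mouse. What the authors deposited is 1 file for each library with its read counts, not normalized, by gene. Per the submitters' processing notes, HISAT2 2.2.1, HTSeq 2.0.2 and the builds GRCm39 and mm39 were used. The annotation release and the counting options are not given in the sources used here. The Tnc-/- files carry symbols and 5 rows that name no gene, with 30.1 to 32.7% of the listed reads. Those rows were left out. Such rows are not in the wild-type files. No column was left unmapped (0).

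Counts of the 56854 identifiers in all files were tested with edgeR 4.0.16 (R 4.3.3). The fit used the default filterByExpr filter, TMM scaling (factors 0.920 to 1.14), robust dispersions and genotype as its 1 term, with Benjamini-Hochberg adjustment over 17791 genes and a threshold of 0.05. On counts simulated for 3 wild-type and 4 Tnc-/- libraries from the real means and library sizes, with the same dispersion of 0.03 in every library, 46 of 50 genes made 2-fold higher and 44 of 50 made 2-fold lower were called, as were 6 of 20334 genes left unchanged. The simulation does not hold the wider spread of the real wild-type libraries. SE is the log2 fold change over the square root of F. Printed levels are CPM, counts over the library total, so fold changes of the fit exceed ratios of printed levels. Spans and exon lengths are from GENCODE M21 (GRCm38), which held 91.5% of the identifiers. The series text counts the mice but does not describe housing or litters, so p-values measure the spread between these libraries.

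Named genes are the 9, every called gene of the 5 wider lists with the 2 of each list that had the highest mean CPM, whatever their length, and the 6 genes of most like pattern. Others named (Tnc, Scx, Gp1bb, P2rx1, Reln, Flt4 and those listed at 0) were chosen after their values were seen. The 9 genes, the lists and the tests were chosen with earlier results of these data known. As alternatives the counts were fitted with DESeq2 1.42.0 (adjusted by Benjamini-Hochberg or by Bonferroni), limma 3.58.1 voom, other scalings and filters, left-out libraries, a replicate block, the receptor covariate and short genes alone.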

Additional observations from a re-analysis of the deposited data

How the results depend on the processing

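Scaling by library totals moved the median over all genes from -8.9e-04 to -0.22 on the log2 scale and that of the 9 platelet genes from 1.03 to 0.84, and the share of lower calls from 64.5 to 81.6%. It was 27.5% with limma voom and 83.1% with DESeq2 and Bonferroni adjustment. With library totals edgeR called 4 of the 9 as higher, without Gp5 (5.58% of all genes were called higher). Of the wider lists it then called 16 genes higher and 5 lower. The direction of the 9 held in every alternative that tested them (short genes alone tested 6 of 9) other than the receptor covariate, where Clec1b (-0.074), Gp6 (-0.086) and Tubb1 (-0.19) turned lower. That covariate was higher in every wild-type library than in any Tnc-/- library, so it overlaps with genotype.

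Of 5 calls among the 9, DESeq2 with Bonferroni adjustment left 0 (8 at an unadjusted p under 0.05; 7 with Benjamini-Hochberg adjustment), limma voom 2, the receptor covariate 0, short genes alone 2, and wild-type libraries 2 and 3 left out 0. Leaving out 1 library gave 0 to 9. For the wider lists, 22 calls became 5 with DESeq2 and Bonferroni adjustment, 8 with limma voom, 1 with the covariate, 3 without wild-type libraries 2 and 3, and 0 of 7 in edgeR for short genes alone (3 at an unadjusted p under 0.05), with 4 to 42 over fits that left out 1 library. Over all genes, 5159 calls became 1653, 1004, 399, 825 and 629 in the same settings, 1933 with the replicate block, and 2229 to 14113 with 1 library left out. The log2 ratio of mean summed platelet levels, 0.88, ran from 0.67 to 1.17 with 1 library left out, and was 0.43 with wild-type library 1 alone, 1.03 with DESeq2 size factors and 1.07 with TMM factors, the last chosen after seeing the data.

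Replicate numbers were not taken as pairs: deviations of same-numbered libraries correlated at 0.022, 0.11 and -0.0051, and not every library correlated best with its own number. With the number as a block, 7 of the 9 genes (4.96% of all genes as higher) and 21 of the wider lists were called.

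Of the wider lists, Gp1ba (-0.011) and Meis1 (0.52) turned with the covariate and Serpine2 without wild-type library 1 (-0.26 to 0.19 over fits that left out 1 library). Thbs1 turned with limma voom (0.026), with no filter (0.070), and when wild-type library 1 (0.23), wild-type library 3 (0.086), Tnc-/- library 2 (0.075) or Tnc-/- library 3 (0.0072) was left out. Neither Serpine2 nor Thbs1 was called in these fits. The cause of these changes was not tested. Counting error limits Gp6 most, with 66 counts in its lowest library.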
